A study of Drosophila melanogaster with 31 samples.

Results

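Brains of 25-day-old male flies of the wild-type strain OreR were profiled after 30 min of odor and light and in flies that stayed deprived of these stimuli (0 min). The comparison is made of 4 RNA-seq libraries, which are 2 at 30 min and 2 at 0 min, lettered A and B in each group, out of 23 brain libraries and 31 libraries in all. They were chosen by their titles alone, so no measured value entered the choice. Both groups share strain, sex, age, tissue and the kind of library, and differ in the label by the stimulus. Brains of 5-day flies (3 libraries at 30 min and 3 at 0 min) and of 10-day flies (2 at 30 min and 2 at 0 min) of the same strain and sex serve below to show where the 25-day values differ. The series calls its replicates biological, but how many brains went into a library, and what a letter stands for, is not given in the sources used here. The p-values therefore measure the spread between libraries, and in the fit over all 23 brain libraries this spread is pooled. Most of the 23 are of 5-day flies, among them libraries at 10, 20 and 45 min. The p-values of the 25-day response thus rest largely on spread outside the 25-day libraries.

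Neurons that fire let calcium in, and calcium-dependent kinases then switch on a first wave of activity-regulated genes within minutes. In flies this wave holds transcription factors such as Hr38, the NR4A-type nuclear receptor, and sr (stripe), the Egr-type zinc-finger factor, and effectors such as Arc1, which packs its own RNA into capsids. Light reaches the fly brain through the compound eyes and the ocelli, whose photoreceptors turn a photon into current through rhodopsin, a Gq protein, phospholipase C and the channels trp and trpl. Bulk RNA of a whole brain averages responding neurons with all other cells, and in it more cells of a type and more RNA per cell cannot be told apart.

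The libraries held 26.0 M (A) and 45.8 M (B) estimated counts at 30 min, and 31.1 M (A) and 44.4 M (B) at 0 min (M, 1000000 counts). Neuronal marker genes were abundant in all 4. nSyb, the synaptic vesicle fusion protein, stood at 1795 and 3221 counts per 1000000 (CPM) at 30 min and at 1877 and 3590 CPM at 0 min, A before B, an order kept for all paired values below. Transcripts of the mitochondrial genome took 2.16% and 4.45% of the counts at 30 min and 2.36% and 2.90% at 0 min, highest in 30 min B. The letters stood far apart. The 2 libraries of letter A correlated across genes at r = 0.985 (Pearson, log2 CPM), the 2 of letter B at r = 0.99, but A and B at 30 min at 0.902 and at 0 min at 0.915. Of 10431 genes tested, 6829 (65.5%) differed between B and A at 25 days (edgeR's quasi-likelihood test, Benjamini-Hochberg adjusted p under 0.05), 3149 of them (30.2% of genes tested) higher in B. The letters also differ in the fragment length that the quantification used, 325 bases in A and 335 bases in B, and the part of this setting in the difference cannot be told apart from that of the letter. The response was measured within letters, with the letter as a block in a fit over all 23 brain libraries.

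No gene passed an adjusted p of 0.05 in edgeR for the 25-day response, and the smallest adjusted p was 0.902. At an unadjusted p under 0.05 there were 284 genes (2.72% of those tested), 158 higher (1.51%) and 126 lower (1.21%) at 30 min. Under the same test the 5-day response had 2564 genes (24.6%) at an unadjusted p under 0.05 and none past the adjustment. The 5-day count rests on 3 pairs, against 2 at 25 days. In 5-day letters A and B the fragment length used also differed between 30 min (335 bases) and 0 min (369 bases). The counts of these ages are therefore not like for like. The 10-day response had 797 (7.64%) at an unadjusted p under 0.05 and 5 (0.0479%) past the adjustment, all 5 higher at 30 min. DESeq2 with the same block called 1 gene at 25 days, cbt, at an adjusted p of 0.0423. A fit on the 4 libraries alone, with 1 residual degree of freedom, called 13 genes, all higher at 30 min, among them jhamt and Cyp6g2 of the corpora allata and the digestive genes Jon65Aiii, Jon65Aiv, alphaTry and yip7. Across genes the fold in letter A and the fold in letter B were nearly unrelated, with r = 0.0634 over all 10431 genes and r = 0.104 over the 4070 genes with a mean log2 CPM of at least 5. These correlations are descriptions, since genes of a library share its depth and handling. Genes higher at 30 min in both letters made up 27% of those tested, and genes lower in both made up 26.2%. Levels of both 30 min libraries above both 0 min libraries, with no overlap, were found for 416 genes (3.99%), and the reverse for 414 (3.97%).

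**Figure D1:**
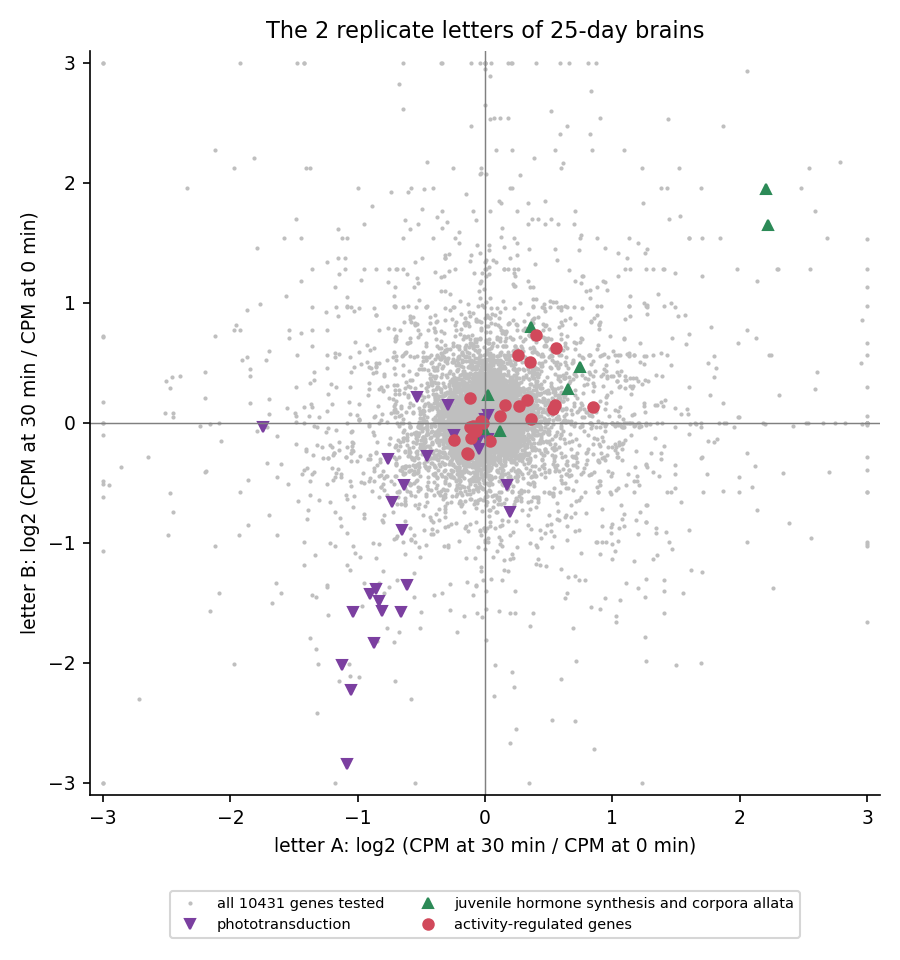
Each gray point is 1 of 10431 genes, with the log2 ratio of CPM at 30 min to CPM at 0 min in letter A (horizontal) and in letter B (vertical), and ratios beyond 3 drawn at the edge. The cloud shows no diagonal (r = 0.0634), phototransduction genes (purple triangles pointing down) lie mostly in the lower left, and jhamt and Cyp6g2 of juvenile hormone synthesis (green triangles) lie far to the upper right.

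Activity-regulated genes, the readout closest to neuronal firing, were examined first. The list had 25 names, of which 23 matched a gene and were tested. None passed the adjustment in edgeR, while DESeq2 called cbt. Of the 23, 12 were higher at 30 min in both letters and 8 were lower in both, against 27% and 26.2% of all genes tested. Their median log2 change was 0.09, against 0.01 over all genes tested. The groups did not overlap for 3 members, cbt, CG14186 and hry, all higher at 30 min (background 3.99%).

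cbt (cabut), a zinc-finger transcription factor of the TIEG family, had 92.5 and 137 CPM at 30 min and 63.0 and 89.3 CPM at 0 min. Both 30 min libraries lay above both 0 min libraries, and the ratio was close to the same in the letters, 1.47 in A and 1.54 in B. The means were 115 ± 31.7 CPM at 30 min and 76.2 ± 18.6 CPM at 0 min (SD, n = 2 each). Fitted within letters, the log2 change was 0.59 ± 0.11 (SE), with an unadjusted p of 0.00017 and an adjusted p of 0.902 in edgeR. It was the smallest p of the comparison. Nearly all cbt RNA was the transcript cbt-RA, at 95.9 and 152 transcripts per 1000000 (TPM, a level per length) at 30 min and 70.0 and 102 TPM at 0 min.

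CG14186, an uncharacterised gene on activity lists, had 262 and 341 CPM at 30 min, against 198 and 205 CPM at 0 min. The 0 min libraries were nearly equal while the 30 min libraries were apart, and the groups did not overlap. Its log2 change was 0.57 ± 0.29 (SE; adjusted p = 1 in edgeR). hry (hairy), a basic helix-loop-helix repressor, had 23.4 and 17.7 CPM at 30 min and 13 and 16.1 CPM at 0 min. Most of that difference was in letter A, where the ratio was 1.81, against 1.1 in letter B. In letter A the transcript hry-RB stood at 16.5 TPM at 30 min and 6.25 TPM at 0 min, whereas hry-RA was level, at 7.46 TPM at 30 min and 7.71 TPM at 0 min. In letter B hry-RB was level, at 16.7 TPM at 30 min and 16.64 TPM at 0 min, and hry-RA had 1.15 and 0.03 TPM. The letters thus share no transcript that was higher at 30 min.

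sr had 43.6 and 86.5 CPM at 30 min and 36.4 and 58.4 CPM at 0 min. It was higher at 30 min within each letter, but the 30 min library of A lay below the 0 min library of B, so the groups overlapped. The log2 change was 0.42 ± 0.28 (SE; adjusted p = 1 in edgeR). CG13055, uncharacterised, behaved alike, with 28.8 and 62.3 CPM at 30 min against 22.5 and 43.7 CPM at 0 min. CrebA, a bZIP factor of the secretory pathway, had 26.1 and 33.2 CPM at 30 min and 17.8 and 30.0 CPM at 0 min, with the larger ratio in letter A. In fits that left out 1 library and had no block, each of the 3 changed sign once, to -0.13 for sr and -0.21 for CG13055 without 30 min B, and to -0.02 for CrebA without 0 min A.

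Hr38 showed no common direction. It had 26.0 and 54.7 CPM at 30 min and 28.3 and 47.2 CPM at 0 min, lower at 30 min in letter A and higher in letter B. Its log2 change was 0.05 ± 0.58 (SE), so an interval of this width covers changes in either direction. Arc1 had 79.6 and 34.9 CPM at 30 min and 55.1 and 32.2 CPM at 0 min, higher within each letter but mainly in A, with a log2 change of 0.32 ± 0.58 (SE). Its relative Arc2 was near 2 CPM in letter A and below 1 CPM in letter B. Jra, the fly Jun, differed little but evenly, at 41.0 and 22.4 CPM at 30 min against 36.7 and 20.2 CPM at 0 min.

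The members with a lower level in both letters had small differences. They were kay (the fly Fos), Atf3, vri and tim of the circadian clock, Mob2, puc (the phosphatase that limits JNK signalling), CG8910 and CG14024. Their fitted log2 changes lay between -0.20 for vri and -0.01 for puc. kay, the partner of Jra in AP-1, had 92.3 and 134 CPM at 30 min and 110 and 149 CPM at 0 min. Per length, cbt was among the more abundant members at 30 min, with 104 and 158 TPM, while Hr38 had 7.64 and 16.2 TPM and sr had 15.3 and 28.7 TPM.

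**Figure D2:**
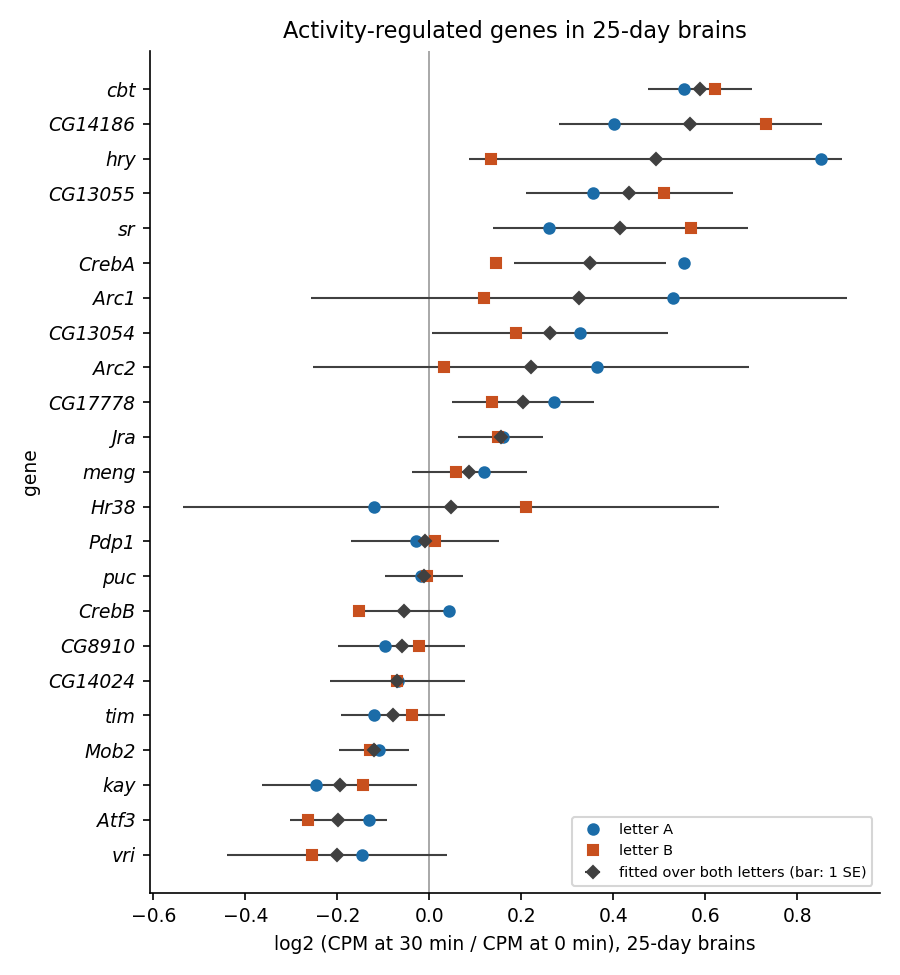
For each of 23 activity-regulated genes (rows), the log2 ratio of CPM at 30 min to CPM at 0 min in 25-day brains is drawn for letter A (circle) and letter B (square), with the fitted change over both letters (diamond) and its SE (bar). cbt at 0.59 has both letters close together and a short bar, whereas Hr38 at 0.05 has its letters on either side of 0.

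Set beside younger brains, the 25-day change of cbt was of similar size. Its log2 change was 0.49 at 5 days, 0.46 at 10 days and 0.59 at 25 days. At 10 days cbt had 95.8 and 98.1 CPM at 30 min and 69.6 and 71.1 CPM at 0 min, and at 5 days it had 85.8, 102 and 91.7 CPM at 30 min and 62.3, 61.4 and 74.9 CPM at 0 min (letters A, B and C). So cbt was higher at 30 min in 7 of 7 same-letter pairs, and the 25-day library 30 min B was the highest of all 23 brains. The difference between the 25-day and the 5-day response was 0.10 ± 0.15 (log2, SE), and that between 25 and 10 days was 0.13 ± 0.16, neither past the test. CG14186, sr and CG13055 were also higher at 30 min in 7 of 7 pairs. For sr the log2 changes were 0.61 at 5 days, 0.61 at 10 days and 0.42 at 25 days. For Hr38 they were 0.54, 0.55 and 0.05, and the difference between the 25-day and the 5-day response was -0.49 ± 0.76 (log2, SE; adjusted p = 0.808 in edgeR).

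The mean response of the 3 ages, a contrast added after the data were seen, used all 7 pairs. In it 1039 genes (9.96%) had an unadjusted p under 0.05 and 2 genes (0.0192%) passed the adjustment, both higher at 30 min. cbt was 0.51 ± 0.06 (log2, SE) higher at 30 min, with an adjusted p of 0.0147 in edgeR. Without the letter as a block, or with the fragment length setting in its place, no gene passed for this contrast. The other was Diedel3, which was close to 0 in the 25-day libraries apart from 0.724 CPM in 30 min A, so its 25-day change rests on that library. Higher in 7 of 7 pairs were 142 genes (1.36%) and lower in all of them were 172 (1.65%). Among them was Cdc7, a kinase of replication origins, with 30.8 and 29.6 CPM at 30 min and 25.6 and 24.4 CPM at 0 min at 25 days. Its 4 values split cleanly between the groups, and its log2 change was 0.27 ± 0.11 at 25 days. repo, the transcription factor that marks glia, was higher in 7 of 7 pairs as well, and had 139 and 87.6 CPM at 30 min and 118 and 77.8 CPM at 0 min. The glial list as a whole did not follow it at 25 days. Of its 16 genes 3 were higher in both letters and 5 lower in both (background 27% and 26.2%). At 5 days the 30 min and 0 min libraries of letters A and B were quantified with different fragment lengths (335 bases at 30 min and 369 bases at 0 min), and the part of this in the 5-day values was not tested.

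**Figure D3:**
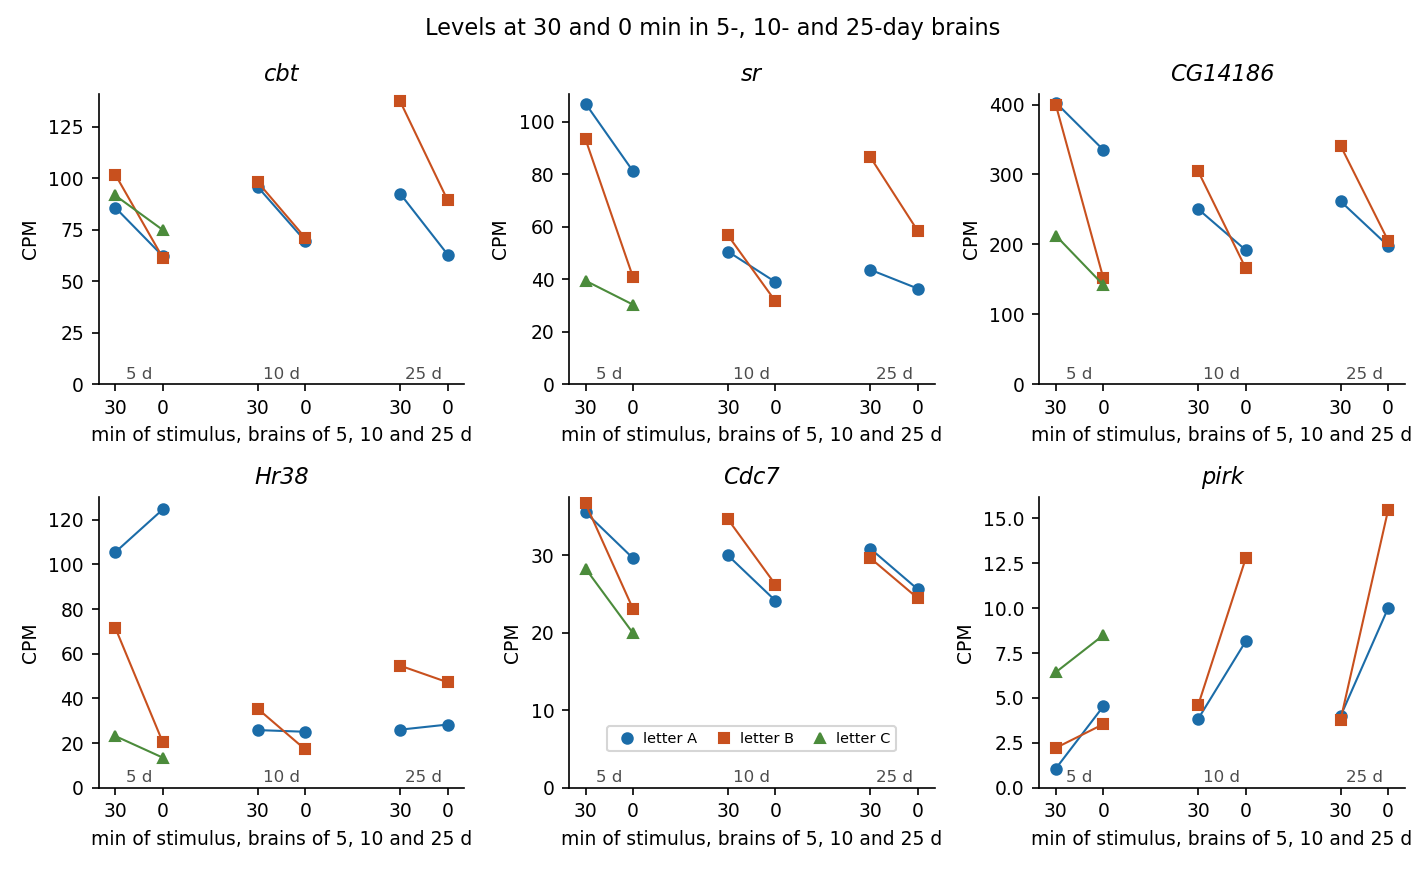
CPM of 6 genes at 30 min and 0 min in brains of 5, 10 and 25 days, with 1 line per replicate letter joining the library at 30 min to the library at 0 min. cbt and Cdc7 slope the same way in 7 of 7 pairs, pirk the opposite way in 7 of 7, and Hr38 at 25 days slopes opposite ways in the letters.

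The genes with the smallest p among those higher at 30 min, with a mean log2 CPM of at least 1, no overlap and the same sign in both letters, were led by cbt. After it came Tudor-SN, Mvd, Gsc, fipi, Rat1, qkr58E-3, caps, CG5033 and mei-218, with log2 changes between 0.24 for Tudor-SN and 0.79 for Gsc. Tudor-SN, a nuclease of RNA granules, had 99.99 and 82.8 CPM at 30 min and 80.8 and 73.8 CPM at 0 min. qkr58E-3, a KH-domain RNA-binding protein, had 74.8 and 113 CPM at 30 min and 60.8 and 66.2 CPM at 0 min, with the wider gap in letter B. Rat1, an RNA exonuclease of the nucleus, had 39.7 and 49.8 CPM at 30 min and 36.0 and 39.6 CPM at 0 min. caps (capricious), a cell-surface protein of synaptic targeting, had 99.99 and 122 CPM at 30 min and 89.1 and 97.7 CPM at 0 min. None of these 10 passed the adjustment in edgeR.

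The matching genes lower at 30 min were CG10663, pirk, Scp2, Grd, GIIIspla2, lama, Xport-A, Cpn, chp and CBP. pirk, an inhibitor of the Imd immune pathway, had 4.00 and 3.80 CPM at 30 min and 10.0 and 15.5 CPM at 0 min. The 30 min libraries were close together and the 0 min libraries well above them, and the log2 change was -1.68 ± 0.37 (SE; unadjusted p = 0.000573, adjusted p = 1 in edgeR). Grd, a subunit of the family of GABA and glycine receptors, had 17 and 18.4 CPM at 30 min and 22.8 and 21.7 CPM at 0 min, a log2 change of -0.33 ± 0.09. Scp2, a sarcoplasmic calcium-binding protein, had 135 and 190 CPM at 30 min and 197 and 232 CPM at 0 min. Xport-A (a chaperone of rhodopsin and the channel trp), Cpn (calphotin) and chp (chaoptin) are genes of photoreceptors. Xport-A had 2.07 and 0.780 CPM at 30 min and 4.39 and 3.29 CPM at 0 min, and Cpn had 1.28 and 1.15 CPM at 30 min and 4.19 and 3.34 CPM at 0 min. The list of retina structure and pigment, which holds chp, had no common direction. Of its 9 genes tested 3 were lower in both letters and 2 higher in both (background 26.2% and 27%), and its median log2 change was -0.07. cd (cardinal), an enzyme of eye pigment synthesis, had 0.655 and 0.707 CPM at 30 min and 0.314 and 0.301 CPM at 0 min, higher at 30 min with no overlap and a log2 change of 1.14 ± 0.57 (SE; adjusted p = 1 in edgeR).

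Most genes of phototransduction had lower values at 30 min in both letters, by about 1 log2 unit for ninaE, trp, Arr1 and Arr2. Several genes of this list stood high in the libraries without the stimulus when set against the other brains, as given below. Of 33 genes listed, 32 were tested, and 25 of them were lower in both letters and 2 higher in both, against 26.2% and 27% of all genes tested. In letter A alone 27 were lower, and in letter B alone 28. The groups did not overlap for 6, all lower at 30 min (background 3.97%). The list's median log2 change was -0.45, against 0.01 over all genes tested. None passed the adjustment in edgeR, and 4 had an unadjusted p under 0.05, all lower (background 1.21%): ninaC, trp, Pdh and ninaA.

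The visual pigments came first in this group. ninaE, the opsin of the outer photoreceptors of the compound eye, had 210 and 104 CPM at 30 min and 322 and 265 CPM at 0 min. Both 30 min libraries lay below both 0 min libraries, and the log2 change was -0.98 ± 0.62 (SE; adjusted p = 1 in edgeR). Rh2, the opsin of the ocelli, had 225 and 30.4 CPM at 30 min and 466 and 142 CPM at 0 min, lower at 30 min within each letter, with 30 min A above 0 min B. The 19 other brains held Rh2 at 2.73 to 184 CPM, so both A libraries of 25 days were above all of them. For ninaE the highest of these other brains had 300 CPM, below 0 min A but above 0 min B and both 30 min libraries. Rh3, an opsin of inner photoreceptors, had 11.5 and 16.9 CPM at 30 min and 19.2 and 26.9 CPM at 0 min. Rh7, an opsin that is also present in brain neurons, was nearly level, at 23.6 and 56.4 CPM at 30 min and 27.9 and 60.6 CPM at 0 min.

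Downstream of the opsins the same split was seen. trp, the main light-gated channel, had 42.4 and 8.85 CPM at 30 min and 74.3 and 26.3 CPM at 0 min, and its partner trpl had 25.6 and 4.17 CPM at 30 min and 40.5 and 12.5 CPM at 0 min. inaC, the protein kinase C of the eye, had 13.9 and 5.27 CPM at 30 min and 25.5 and 18.9 CPM at 0 min, with no overlap. Gbeta76C, the eye's G protein beta subunit, had 15.1 and 2.34 CPM at 30 min and 31.2 and 7.08 CPM at 0 min. These 4 were lower at 30 min within each letter, with the larger fall in letter B.

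The proteins that shut the response off followed. Arr1 (arrestin) had 87.6 and 10.9 CPM at 30 min and 164 and 29.4 CPM at 0 min, and Arr2 had 246 and 55.3 CPM at 30 min and 438 and 155 CPM at 0 min. ninaC, the eye's myosin III, had 64.8 and 19.2 CPM at 30 min and 118 and 50.1 CPM at 0 min, with a log2 change of -1.12 ± 0.38 (SE; unadjusted p = 0.013, adjusted p = 1 in edgeR). Pdh, a retinal pigment-cell dehydrogenase that recycles the chromophore, had 10.8 and 14.6 CPM at 30 min and 17.04 and 27.1 CPM at 0 min, and was lower at 30 min in 7 of 7 pairs over the 3 ages. chp, the adhesion protein of photoreceptor membranes, had 15.9 and 6.19 CPM at 30 min and 28.6 and 21.98 CPM at 0 min. The highest of the 19 other brains had 41.65 CPM for trp, 73.81 for ninaC, 21.3 for chp and 13.53 for Pdh. 0 min A lay above each of these values, and 0 min B above those of chp and Pdh. 30 min A lay above that of trp and 30 min B above that of Pdh, and the remaining 30 min values were within the range of the other brains. Whether high levels at 0 min or a fall with the stimulus made the difference was not tested.

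Several other members had ratios close to 1. norpA, the phospholipase C of vision, had 470 and 949 CPM at 30 min and 479 and 977 CPM at 0 min. Galphaq had 340 and 915 CPM at 30 min and 346 and 946 CPM at 0 min, and Ggamma30A had 2433 and 5832 CPM at 30 min and 2587 and 6088 CPM at 0 min. rdgA, rdgB, rdgC and Gprk1 lay between -0.07 and 0.04 on the log2 scale. For norpA both B libraries lay far above both A libraries, while within a letter the values at 30 and 0 min were close. Per length at 0 min, norpA had 136 and 285 TPM and trp had 40.0 and 14.3 TPM.

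Other genes of the visual system had smaller differences. CarT, a carcinine transporter of photoreceptors, had 5.83 and 1.51 CPM at 30 min and 7.52 and 2.69 CPM at 0 min. ort, the histamine receptor of the lamina neurons behind the retina, had 39.4 and 68.7 CPM at 30 min and 48.2 and 73.6 CPM at 0 min, a log2 change of -0.20 ± 0.09 (SE; unadjusted p = 0.0441, adjusted p = 1 in edgeR). Of 7 genes of histamine transmission, 4 were lower in both letters and none was higher in both (background 26.2% and 27%). Whether eye or ocellar tissue left on the dissected brains differed between the libraries was not tested. The median of the phototransduction list was -0.22 at 5 days and -0.35 at 10 days, but its genes did not move alike at 5 days. There the mean CPM at 30 and 0 min was nearly equal for ninaE (84.5 and 79.9), Rh2 (37.33 and 37.05) and Arr1 (15.4 and 15.7). It was lower at 30 min for trp (13.3 and 16.9), ninaC (25.3 and 34.3) and Pdh (6.06 and 8.33). The difference between ages did not pass for any member of that list.

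**Figure D4:**
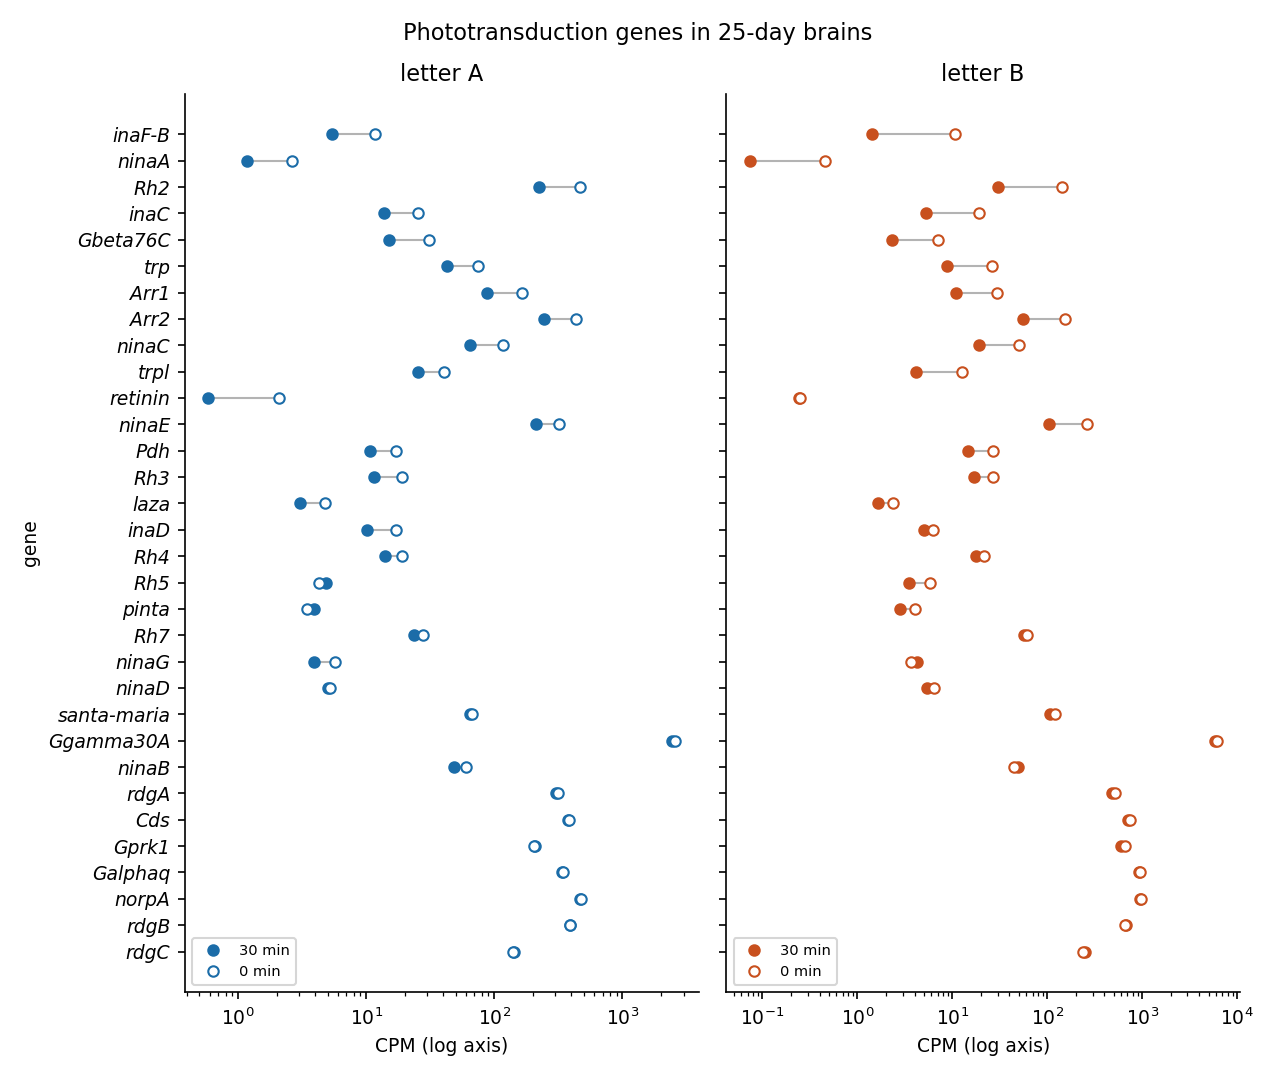
CPM (log axes) of 32 phototransduction genes in letter A (left) and letter B (right) of 25-day brains, at 30 min (filled) and 0 min (open), ordered by fitted change with the most negative at the top. Filled circles lie left of open circles for nearly all genes in the upper part, whereas norpA, Galphaq and rdgB near the bottom coincide.

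Of the genes of juvenile hormone synthesis, jhamt and Cyp6g2 had large ratios in both letters. The 7 isoprenoid enzymes listed had a median log2 change of 0.13, with 4 higher in both letters and 2 lower in both. The hormone is made in the corpora allata, a gland beside the brain, from isoprenoids of the mevalonate pathway, and the list of these genes was drawn up after the values were seen. jhamt, the methyltransferase of the last steps, had 35.6 and 33.6 CPM at 30 min and 7.67 and 8.66 CPM at 0 min. The groups were far apart and the letters close, with ratios of 4.64 in A and 3.88 in B, and the log2 change was 2.08 ± 0.84 (SE; unadjusted p = 0.0287, adjusted p = 1 in edgeR). Fitted on the 4 libraries of 25 days alone, jhamt passed with an adjusted p of 0.0148. The other 19 brains ranged from 2.37 to 35.0 CPM, so a level such as that of the 30 min libraries was also seen at 0 min, in 10-day brain A.

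Cyp6g2, a cytochrome P450 of the corpora allata, had 111 and 23.5 CPM at 30 min and 23.9 and 7.48 CPM at 0 min, a log2 change of 1.94 ± 0.74. Of the mevalonate enzymes, Hmgs (the synthase at its start) had 89.0 and 39.3 CPM at 30 min and 53.1 and 28.5 CPM at 0 min. Mvd (the decarboxylase) had 12.4 and 12.7 CPM at 30 min and 9.66 and 7.28 CPM at 0 min, and Fpps (farnesyl diphosphate synthase) had 27.9 and 23.7 CPM at 30 min and 17.7 and 19.5 CPM at 0 min. Mvk, Pmvk and Idi lay between -0.10 and 0.02 on the log2 scale. In all, 5 of the 9 genes listed had an unadjusted p under 0.05, all higher (background 1.51%), and 3 did not overlap, all higher (background 3.99%). As the list was drawn up after the values were seen, these counts are descriptions and no test of the list.

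At 5 days jhamt was higher at 30 min in 3 of 3 pairs, at 9.79, 10.33 and 16.7 CPM at 30 min and 8.58, 9.23 and 12.3 CPM at 0 min (letters A, B and C), and so were Cyp6g2 and Akh. At 10 days the order was the other way. jhamt had 9.57 and 3.92 CPM at 30 min and 35.0 and 8.05 CPM at 0 min, and the 25-day minus the 10-day response was 3.54 ± 1.17 (log2, SE; unadjusted p = 0.0111, adjusted p = 1 in edgeR). Akh, the adipokinetic hormone made in the corpora cardiaca next to the corpora allata, was ordered like jhamt at all 3 ages. It had 65.3 and 22.8 CPM at 30 min and 28.0 and 16.1 CPM at 0 min at 25 days, and 16.2 and 19.1 CPM at 30 min and 87.2 and 56.4 CPM at 0 min at 10 days. Whether the amount of gland on the brains differed between libraries was not tested. The receptors of the hormone, Met and gce, and its target Kr-h1 lay between -0.05 and 0.09 on the log2 scale at 25 days.

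Several immune genes had lower values at 30 min in both letters. Besides pirk, PGRP-LF, another inhibitor of Imd signalling, had 1.31 and 1.88 CPM at 30 min and 3.25 and 2.31 CPM at 0 min. PGRP-LB, an amidase that also limits the pathway, was higher at 30 min within each letter, at 6.04 and 2.19 CPM at 30 min and 4.73 and 1.31 CPM at 0 min, and in 6 of 7 pairs over the 3 ages. Of the 4 inhibitors listed, 2 were lower in both letters and 2 higher in both. PGRP-LC, the receptor of the pathway, had 11 and 11.1 CPM at 30 min and 12.1 and 14.1 CPM at 0 min. Of the 16 genes of the pathway 6 were lower in both letters and 3 higher in both (background 26.2% and 27%), with a median log2 change of -0.03. The pathway's transcription factor Rel had 45.1 and 34.4 CPM at 30 min and 42.8 and 37.5 CPM at 0 min. This list too was drawn up after the values were seen. pirk was lower at 30 min in 7 of 7 pairs over the 3 ages, and its mean log2 change over ages was -1.29 ± 0.20 (SE), with an adjusted p of 0.0802 in edgeR and of 3.63e-06 in DESeq2.

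Of 16 antimicrobial peptide genes 8 were tested, and 5 of them were lower in both letters and none higher in both (background 26.2% and 27%). The list's median log2 change was -1.23 in letter A and -0.25 in letter B. At 5 days the median was -2.40 and at 10 days 0.57. The 16 genes summed to 17.9 and 4.78 CPM at 30 min and to 38.3 and 5.09 CPM at 0 min. Drs (drosomycin) had 0.966 and 0.951 CPM at 30 min and 7.84 and 1.38 CPM at 0 min, so most of its difference came from 0 min A. TotA, a secreted stress protein, had 12.1 and 15.5 CPM at 30 min and 31.8 and 27.0 CPM at 0 min, with no overlap and a log2 change of -1.10 ± 0.95. AttA and AttB share sequence, so their counts may be split wrongly.

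Genes known from other tissues had high levels in single libraries or in 1 letter. Muc68D, a mucin gene, had 4208 and 1.15 CPM at 30 min and 1814 and 0.703 CPM at 0 min, so within the 25-day brains it was high in letter A. At 10 days it had 914 and 0.04 CPM at 30 min and 0.74 and 324 CPM at 0 min, with no such tie to a letter. The 21 digestive genes summed to 2000 and 6.34 CPM at 30 min and to 418 and 4.59 CPM at 0 min. Among these Jon65Aiii, a gut protease, had 113 and 0.0488 CPM at 30 min and 0.370 CPM in A and 0 in B at 0 min, and the list's median log2 change of 1.64 rests on letter A (1.99) with 0 in letter B. Cyp4g1, the oenocyte cytochrome P450 of cuticle hydrocarbons, stood at 103 CPM in 0 min B and at 0.342 to 1.34 CPM in the other 3. Of 20 muscle genes, 10 were lower in both letters and 2 higher in both (background 26.2% and 27%), with a median of -0.30. Their sum was 529 and 509 CPM at 30 min and 632 and 518 CPM at 0 min. Of 12 hemocyte genes tested, 7 were lower in both letters and 1 higher in both (background 26.2% and 27%), with a median of -0.23. The part of these tissues in the changes above was not tested.

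Neuronal and housekeeping lists had medians near 0. Median log2 changes were 0.00 for 23 synaptic vesicle genes, -0.02 for 24 ion channels, -0.01 for 29 transmitter receptors, -0.01 for 10 neuronal markers and -0.01 for 16 glial genes. For 13 clock genes the median was 0.01, for 19 heat shock genes 0.03 and for 84 cytosolic ribosomal protein genes 0.01. Of 31 proteasome subunits 13 were higher in both letters (background 27%) and 3 lower in both (background 26.2%), with a median of 0.10. Rpt5, an ATPase subunit of its cap, had 43.8 and 29.0 CPM at 30 min and 38.6 and 25.8 CPM at 0 min. Among neuropeptides Ms (myosuppressin) had 656 and 1147 CPM at 30 min and 637 and 868 CPM at 0 min, higher mainly in letter B. Among glial genes moody, a receptor of the blood-brain barrier, had 59.1 and 69.1 CPM at 30 min and 70.1 and 82.7 CPM at 0 min, a log2 change of -0.25 ± 0.11 with an adjusted p of 1 in edgeR.

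**Figure D5:**
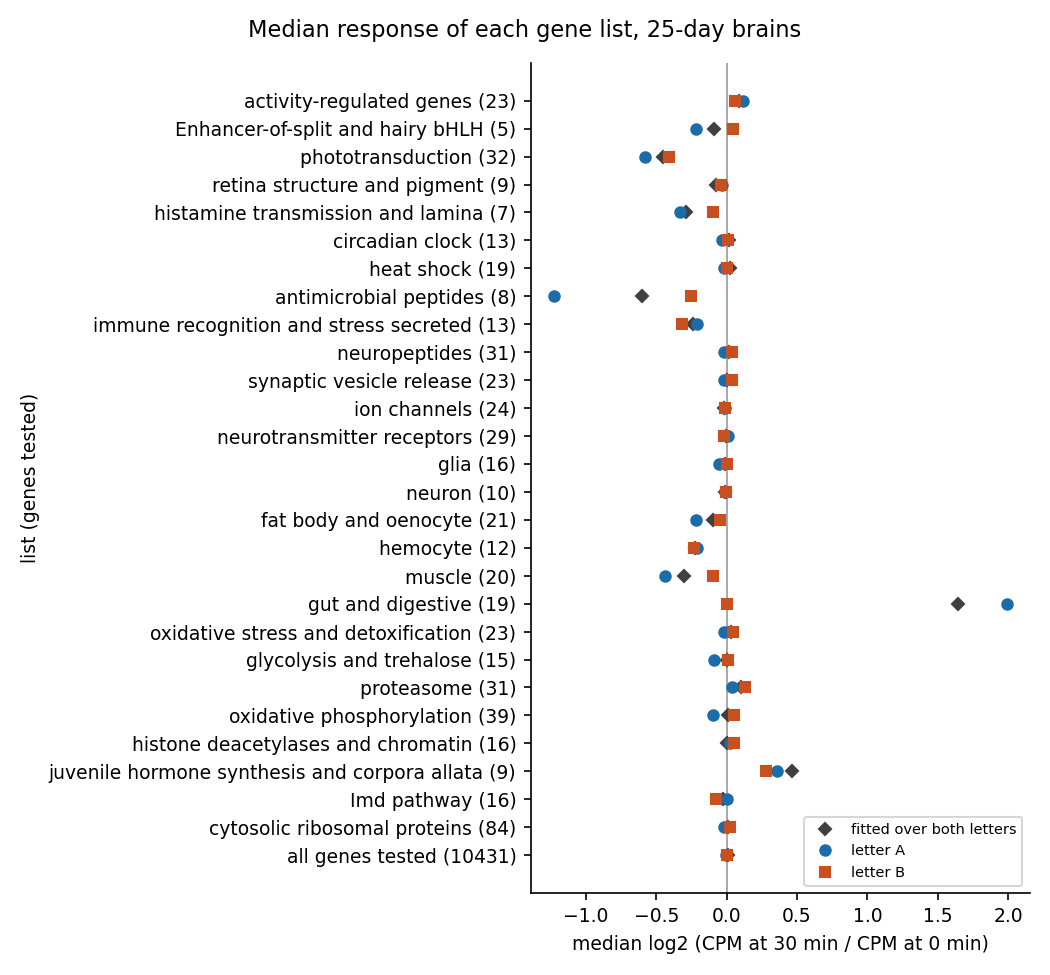
Median log2 ratio of CPM at 30 min to CPM at 0 min in 25-day brains for each gene list with at least 5 genes tested (number in brackets), in letter A (circle), letter B (square) and fitted over both (diamond). Most lists sit near 0, phototransduction is below 0 in both letters (fitted -0.45), and the digestive list at 1.64 has its letters far apart.

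Whether the response at 25 days differed from that of younger brains was tested directly, and no gene passed in edgeR. For 25 minus 5 days 572 genes (5.48%) had an unadjusted p under 0.05 and the smallest adjusted p was 0.643. For 25 minus 10 days there were 374 (3.59%) and 0.554. DESeq2 with the same block called 3 and 2 genes. The 3 were CG43673, CG5506 and Muc68E, with fitted differences of -31.8, -32.8 and -20.5 on the log2 scale. Values of this size are not read as effect sizes here. How far they rest on counts near 0 or on single libraries was not tested. The 2 were sov and CG43867, with differences of -0.53 and -0.33. A negative difference means a fitted response lower than in younger brains, not a fall at 25 days. CG43673 was itself higher at 30 min in the fit on the 4 libraries of 25 days alone, with a log2 change of 1.72. sov had 177 and 102 CPM at 30 min and 199 and 113 CPM at 0 min at 25 days, a log2 change of -0.16, against 0.32 at 10 days.

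Among genes with the smallest p for 25 minus 5 days were Adck1 (difference 0.71 ± 0.15, log2, SE), Cubn (0.57 ± 0.13), Scp2 (-0.57 ± 0.14) and Grd (-0.46 ± 0.11). The log2 change of Grd was -0.33 at 25 days and 0.13 at 5 days. Cubn, the scavenger receptor cubilin of nephrocytes, had 44.8 and 23.7 CPM at 30 min and 34.2 and 17.5 CPM at 0 min at 25 days. For 25 minus 10 days they included Mvd (1.02 ± 0.25), Akh (2.86 ± 0.76), shn (-0.47 ± 0.12) and stan (-0.56 ± 0.15), the planar polarity cadherin, whose 25-day values were level at 271 and 221 CPM at 30 min and 272 and 233 CPM at 0 min.

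Of the 5 genes with the smallest p among those higher at 5 days, cbt had a similar change at 25 days, given above, and the other 4 had smaller ones. COX7B had a log2 change of 0.01 at 25 days and 0.98 at 5 days, and EloC had -0.03 at 25 days and 0.49 at 5 days. CG34117 had 0.25 at 25 days and 1.40 at 5 days, and CG10674 had 0.22 at 25 days and 1.05 at 5 days. None of the 4 passed the adjusted test of the difference between ages in edgeR. The 5 genes that led in the other direction at 5 days, Cda5, btv, mth, Adat1 and indra, lay between -0.11 and 0.09 on the log2 scale at 25 days. The leading 10-day genes were taken from those with a mean log2 CPM of at least 1 in the 25-day libraries. The 5 genes past the adjustment at 10 days were not among them. Of these leading genes, Itpr, the calcium channel of the endoplasmic reticulum, had a log2 change of 0.07 at 25 days. At 10 days its log2 change was 0.33 (adjusted p = 0.24 in edgeR). slp2, a forkhead factor, had -0.39 ± 0.13 (SE) at 25 days and -0.56 at 10 days, with 9.93 and 13.9 CPM at 30 min and 12.3 and 19.1 CPM at 0 min at 25 days. Across all genes tested the 25-day change correlated with the 5-day change at r = 0.232 and with the 10-day change at r = 0.423, as a description, with no library in common.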

How the data were processed

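Each deposited table lists 30490 transcripts with their length, estimated count and TPM, per the file headers. kallisto 0.43.1 made these values, per the submitters' processing notes, where CASAVA 1.7 and edgeR 3.18.1 also stand. Sources used here do not give the strand setting or the annotation release, so genes that overlap or have near-identical copies carry an uncertain split. The fragment length used was worked out from the deposited lengths and effective lengths.

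Transcript IDs were joined to genes through Ensembl's BDGP6.54 (30255 matched, 13821 genes). Those left out held 0.4% to 0.514% of the counts of a 25-day library. The sum of estimated counts of a gene was rounded. All 23 brain libraries entered edgeR 4.0.16 (R 4.3.3) with TMM normalization, filterByExpr (10431 genes tested), 1 coefficient per group and the replicate letter as a block within each age (10 residual degrees of freedom). Tests were quasi-likelihood F-tests with a robust fit and Benjamini-Hochberg adjustment at 0.05. CPM is per 1000000 counts after TMM, and log2 ratios within a letter used a prior count of 2. Deposited TPM served for levels between genes and in 1 alternative on the log2(TPM + 1) scale with limma 3.58.1. DESeq2 1.42.0 was another. Steps were tested on simulated data.

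Same-letter libraries were treated as pairs because the letter deviations from the group means at 30 and 0 min went together across genes (r = 0.884). Letters A and B of a group were too unlike to be copies of 1 library (chi-square per degree of freedom 700 at 30 min and 676 at 0 min). Members, lists and tests were chosen with earlier results of these data known. Genes were named by these rules: all activity-regulated genes, the 10 with the smallest p in each direction (mean log2 CPM of at least 1, no overlap, same sign in both letters), 5 in each direction for each difference between ages and for the 5- and 10-day responses, and up to 4 of each other list. The lists of juvenile hormone synthesis and response and of the Imd pathway, and jhamt, Cyp6g2, Hmgs, Fpps, Akh, Muc68D, Jon65Aiii, alphaTry, yip7, repo, Cdc7, Diedel3, PGRP-LF, PGRP-LB, cd and Rh2, as well as phototransduction genes beyond the 4 with the smallest p, were chosen after their values were seen, as were genes named because a test called 5 or fewer. Antennal libraries were not used here, and 1 listed gene is not reported by name.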

Additional observations from a re-analysis of the deposited data

How the results depend on the processing

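The 25-day response had 0 genes past the threshold in the fit with the letter as a block, and also without a replicate block (75 genes at an unadjusted p under 0.05), with RLE size factors, with no filter on low counts, with at least 10 counts in every library, with limma on log2(TPM + 1), with the fragment length setting in place of the letter (an alternative added after the data were seen) and in the fits that left out a letter or a library. The replicate block on the 4 libraries of 25 days alone gave 13 genes, and DESeq2 with the block gave 1. For 25 minus 5 days DESeq2 gave 3 genes and for 25 minus 10 days 2, with 0 in each other fit. For the mean of the 3 ages, 2 genes passed with the block, 0 without it, 51 with DESeq2 and 0 with the fragment length setting. The cause of these differences was not tested.

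Of all 197 named genes, 133 changed sign in at least 1 of 15 alternatives, with 288 values turned, 264 of them where a letter or library was left out. A change of sign is detailed here only for the 48 genes at an unadjusted p under 0.05, a rule set after the values were seen. A first rule, a change of at least 1 SE, took in 127 genes, of which 65 turned, with 112 values, all on leaving out a letter or library. Of the 48 genes at an unadjusted p under 0.05, 34 kept their direction in every alternative that gave them a value (up to 15). The others turned only where a letter or library was left out. In fits that left out 1 library with no block, the difference between letters is mixed with that between 30 and 0 min. Diedel3 is counted with these genes because its lowest value was 0, although it did not go below 0. Over the leave-outs the log2 change ran from -0.13 to 0.97 for Cubn, -1.46 to 0.31 for Hex-C, -0.058 to 1.17 for Hmgs, -0.42 to 2.03 for Pkg21D, -2.49 to 6.32 for Mal-A6, -4.34 to 0.43 for ninaA, -0.64 to 0.17 for ort and -0.74 to 0.075 for Ilp6. It ran from -2.60 to 12.6 for Jon65Aiv, -4.97 to 9.81 for betaTry, -1.80 to 14.1 for Jon65Aiii, 0 to 7.83 for Diedel3, -0.50 to 1.84 for TTLL3A and -1.27 to 0.068 for CG11619. Activity-regulated genes outside the 48 turned as well when 1 library was left out. Without 30 min B, sr had -0.13 and CG13055 -0.21, without 30 min A Arc1 had -0.33, and without 0 min A CrebA had -0.02. Hr38 ran from -0.54 to 0.53, and the median of the activity-regulated list from -0.22 to 0.38. cbt stayed between 0.28 and 0.86, pirk between -2.03 and -1.33 and jhamt between 1.95 and 2.21, and the phototransduction median between -0.58 and -0.30. With 2 libraries a group, the depth of 26.0 to 45.8 M counts limits low genes such as Arc2 and ninaA.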

Other observations

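Among genes that no list above covers, several were lower at 30 min in 7 of 7 same-letter pairs of the 3 ages. CG11619 had 6.66 and 15.2 CPM at 30 min and 10.4 and 21.5 CPM at 0 min in 25-day brains, A before B, and its log2 change was -0.57 ± 0.14 (SE). BaraA1, an immune-induced peptide precursor, had 21.6 and 5.75 CPM at 30 min and 78.4 and 10.4 CPM at 0 min, lower at 30 min within each letter with 30 min A above 0 min B. TTLL3A, of the tubulin glycylase family, was the other way round in 7 of 7 pairs, with 7 and 2.07 CPM at 30 min and 4.62 and 1.25 CPM at 0 min at 25 days. All 3 were chosen after their values were seen, and none passed the adjustment in edgeR at 25 days or over the 3 ages. For the mean of the 3 ages DESeq2 called TTLL3A (adjusted p = 0.000271) and CG11619 (adjusted p = 0.000363).

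Of genes of lipid and sugar stores, bmm, the triglyceride lipase brummer, was lower at 30 min in 7 of 7 pairs and had 57.7 and 60.8 CPM at 30 min and 69.0 and 74.1 CPM at 0 min at 25 days, with no overlap. Treh (trehalase) had 577 and 748 CPM at 30 min and 682 and 914 CPM at 0 min. DnaJ-1, a co-chaperone of Hsp70, had 107 and 101 CPM at 30 min and 141 and 131 CPM at 0 min, with no overlap and a log2 change of -0.38 ± 0.19 (SE). None of these passed the adjustment in edgeR.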
